A study of Mus musculus with 4 samples.

Results

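The 5 genes described here, Nefl, Nefm, Nefh, Ina and Prph, encode the intermediate filaments of neurons and were taken by exact symbol from the 32531 gene names of the count files. All 5 were found. Neurofilaments run along the axon and are assembled from the light, medium and heavy chains (Nefl, Nefm and Nefh) together with alpha-internexin (Ina) in the central nervous system. Peripherin (Prph) joins them mainly in neurons with peripheral axons, such as motor and sensory neurons, and in some neurons of the brainstem. The long tails of the medium and heavy chains carry many phosphorylation sites, and the amount and phosphorylation of neurofilaments are linked to the calibre of large myelinated axons. The projection neurons of the deep cerebellar nuclei send such axons to the brainstem and thalamus.

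The samples form 1 group of 4 libraries of ribosome-bound RNA, replicates 1 to 4, each from 3 untreated mice. The mice are adults of the Slc17a6-TRAP line JX883, a transgenic line in which EGFP-tagged Rpl10a, a ribosomal protein, is made in cells with Slc17a6 promoter activity. RNA on tagged ribosomes was immunopurified from dissected deep cerebellar nuclei. Slc17a6 encodes a vesicular glutamate transporter found in many excitatory neurons of the brainstem and cerebellar nuclei. There is no input RNA, wild type or second cell type among the samples used here, so what can be given is how much of each gene there was, how genes compare inside each library, and whether any library departs from the rest. The labels do not say that the pools of mice were independent, so the spread and the p-values concern these 4 libraries.

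Counts assigned to genes ran from 9621762 to 10988373 per library, and a gene with no count may still be present at up to 0.273 to 0.312 counts per 1000000 (CPM), which is what 3 reads are worth, a limit set by counting error alone. Slc17a6 stood at 2237, 2011, 2014 and 2309 CPM in replicates 1 to 4, and all 8 listed markers of glutamatergic nuclear neurons reached 1 CPM in every library. So did 6 of 6 granule cell, 6 of 6 oligodendrocyte, 6 of 8 Purkinje cell and 3 of 4 inhibitory neuron markers. The same held for 5 of 7 astrocyte and Bergmann glia, 2 of 7 motor neuron and 2 of 7 monoamine neuron markers. The summed markers ranged from 72.3 to 369 CPM for inhibitory neurons and from 1173 to 3371 CPM for Purkinje cells, with the lowest sum in replicate 4 and the highest in replicate 3 for both lists. Most of the Purkinje cell sum came from Itpr1, Rgs8 and Car8, which averaged 886, 607 and 293 CPM. The rest of that list averaged from 0.529 CPM (Pcp4) to 45.65 CPM (Gad1). Granule cell markers summed to between 463 and 1103 CPM. Astrocyte and Bergmann glia markers summed to between 318 and 741 CPM, and oligodendrocyte markers to between 473 and 1062 CPM. Rn45s, the ribosomal RNA precursor, made up 4.99, 14.18, 13.64 and 4.92% of gene counts across replicates 1 to 4. In bulk pulldowns such as these, fewer cells of a type and less RNA per cell cannot be told apart.

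The 5 genes lie on 4 chromosomes of mm10. Nefl spans chr14:68083863-68089095 on the plus strand, with 4 exons. Nefm spans chr14:68082590-68124846 on the minus strand in GENCODE M21, because 1 of its 2 annotated transcripts, Nefm-202, reaches from the Nefm promoter across Nefl. The other, Nefm-201, covers chr14:68119283-68124846 and holds the longer coding sequence, 2544 bases. Nefh lies at chr11:4938754-4948064 on the minus strand, Ina at chr19:47014698-47025327 on the plus strand and Prph at chr15:99055174-99058978 on the plus strand. In this annotation 1108 exon bases of Nefl are shared with Nefm-202 on the other strand, and 456 exon bases of Ina with Nt5c2, a nucleotidase gene. In the RefSeq gene table for GRCm38.p6, Nefm covers chr14:68119545-68125004 and does not touch Nefl. The sources used here do not give the annotation or the strand setting of the counting, and the counts of Nefl and Nefm are uncertain to that extent.

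Because the genes are related, their coding sequences were compared to see how far reads of one member could match another. In the GENCODE M21 transcripts with the longest coding sequence, the longest run shared by any 2 of the coding sequences was 35 bases, between Nefm and Prph, and for Nefl and Nefm it was 17 bases. No 50-base window of the Nefm, Nefh or Prph transcript was found in a transcript of another gene. Such windows made up 31.8% of the Nefl transcript, all of them shared with Nefm-202 at the overlap, and 12.8% of the Ina transcript, all shared with Nt5c2.

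Nefh differs from the others by its tail, which is encoded by tandem repeats. The stretch below, coding bases 1954 to 2133 of Nefh-201, is shown because it holds the most copies of the commonest 18-base unit, which is in capitals.
Nefh: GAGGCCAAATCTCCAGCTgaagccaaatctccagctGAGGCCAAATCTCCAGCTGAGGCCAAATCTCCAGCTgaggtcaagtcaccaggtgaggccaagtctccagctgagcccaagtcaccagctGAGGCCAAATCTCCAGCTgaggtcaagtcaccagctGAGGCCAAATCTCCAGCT
The unit occurs 5 times here and 9 times in the Nefh coding sequence, and 0 times in those of the other 4. Because of the repeats, 3.8% of the 50-base windows of the Nefh transcript, and 1.1% of its 100-base windows, occur more than once within it, against 0% for the other members. Reads that align to several places were kept in a separate row of the count files, and the read length is not given in the sources used here. How many Nefh reads were set aside in this way was not tested.

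Nefl, Nefm, Nefh and Ina were abundant, whereas Prph was low in replicates 1 and 2 and at or under the level of 3 counts in replicates 3 and 4. Nefl, the light chain that the other chains need to form filaments, had 1280, 906, 1209 and 1684 CPM in replicates 1 to 4. Nefm, the medium chain, had 1065, 939, 897 and 2502 CPM. Replicate 4 was the highest library for both genes, and for Nefm the other 3 lay close together.

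Nefh, the heavy chain, which is added to neurofilaments late in maturation, had 221, 210, 199 and 368 CPM in replicates 1 to 4. Ina had 419, 433, 479 and 613 CPM and varied least, with its highest library 1.46 times its lowest. Prph had 27, 77, 0 and 1 counts, or 2.81, 7.47, 0 and 0.0910 CPM. Replicate 4 was again the highest library for Nefh and Ina, whereas nearly all Prph counts came from replicates 1 and 2.

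Levels of different genes were compared per length, as CPM per kb of exon, with the union of all annotated exons as the length. On that scale Nefl averaged 376 ± 94.8, Nefm 234 ± 133, Ina 150 ± 27.4, Nefh 62.5 ± 19.8 and Prph 1.30 ± 1.75 CPM per kb (SD, n = 4). Without replicate 2, the mean of Prph was 0.483 CPM per kb. Among the 13022 genes with a length and at least 10 counts in at least 2 libraries, Nefl ranked from 33 to 62, Nefm from 39 to 121, Ina from 108 to 197 and Nefh from 280 to 719 over the libraries. Prph ranked from 7024 to 12803. All 5 members passed that count filter, Prph through replicates 1 and 2.

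**Figure D1:**
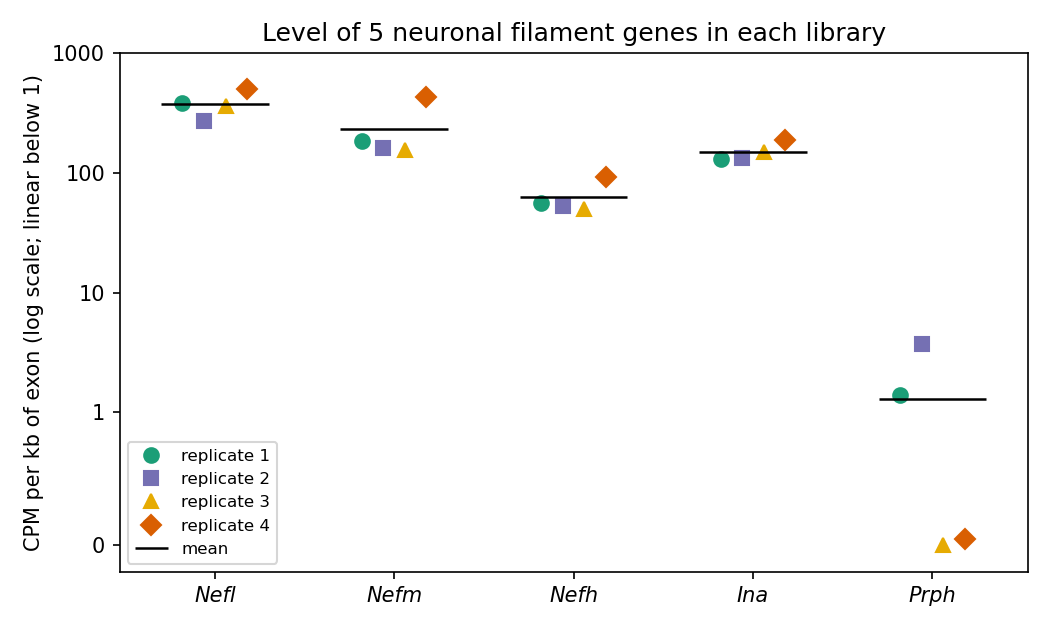
Level of each gene per length (CPM per kb of union exon, log scale that is linear below 1) in each of the 4 libraries, with the mean as a line. Replicate 4, drawn as diamonds, is the highest library for Nefl, Nefm, Nefh and Ina, and Prph is at 0 in replicate 3.

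The order of the 4 abundant genes was tested within libraries. For each pair, the log2 ratio of every gene in the table to the second gene was fitted with limma, and p-values were adjusted over all 13021 genes tested. Where nearly all genes lay below the second gene, the adjustment changed the p-values little. The limma p-value went from 0.0496 to 0.0501 for Nefm/Ina and from 0.00272 to 0.00273 for Nefm/Slc17a6. The SD given is that of the ratio over the 4 libraries, while the test uses a variance moderated over all genes. All ratios to the same second gene share its values in the 4 libraries, so the variances that are pooled are not independent. The limma p-values can therefore be too small or too large for what 4 libraries show. With union exon lengths, every one of the 10 pairs of members kept its order in 4 of 4 libraries. The exact two-sided sign-flip test then gave p = 0.125, the smallest value that 4 libraries allow.

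Nefl exceeded Nefh by 2.77, 2.35, 2.84 and 2.44 on the log2 scale per length in replicates 1 to 4. The mean ratio was 2.60 ± 0.24, a 6.06-fold difference (limma, adjusted p = 2.1e-07). Of the genes tested, 92.9% lay below Nefh and 2.1% above it, so Nefl belonged to the small share above. Nefm also exceeded Nefh, by 1.73, 1.62, 1.64 and 2.23, with a mean of 1.81 ± 0.29 (adjusted p = 5.9e-06). The RNA of Nefh was thus the lowest per length of the neurofilament triplet in every library.

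Ina RNA lay between that of Nefm and Nefh per length. The mean log2 ratio Nefl/Ina was 1.31 ± 0.23 (limma, adjusted p = 9.0e-05), whereas 0.676% of the genes tested lay above Ina and 98.3% below it. The ratio Nefh/Ina was -1.29 ± 0.22 (adjusted p = 5.2e-05). The ratio Nefm/Ina was 0.51, 0.28, 0.07 and 1.19 in replicates 1 to 4, with a mean of 0.51 ± 0.49 that missed the threshold (adjusted p = 0.0501). The result depended on the length given to Nefm. With the longest transcript as length the mean ratio was 1.16 (limma, adjusted p = 4.7e-04). With the transcript of longest coding sequence, chosen after seeing the data, it was 1.31 (adjusted p = 2.4e-04). By union length it fell on either side of the threshold as other settings changed, and without replicate 4 it was 0.29 (adjusted p = 0.152).

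Nefl and Nefm were not told apart, and which of them is higher depends on the length given to Nefm. With the union of exons, 5782 bases including those of Nefm-202, the ratio Nefl/Nefm was 1.04, 0.72, 1.21 and 0.20 in replicates 1 to 4. Its mean was 0.79 ± 0.44 (limma, adjusted p = 0.0756). The moderated standard error in that test was 0.45, no smaller than the SD over the 4 libraries. It comes from the variance pooled over all ratios to Nefm, not from this pair alone. Of the genes tested, 0.307% lay above Nefm and 98.6% below. With the 3334 bases of Nefm-201, an alternative chosen after seeing the data, Nefm averaged 405 ± 231 CPM per kb (SD, n = 4) and the mean ratio was 0 (adjusted p = 0.998). On that scale Nefl stood at 379, 268, 358 and 498 CPM per kb in replicates 1 to 4. Nefm stood at 319, 282, 269 and 750, so the order of the pair was not kept. Without replicate 4 the ratio by union length was 0.99 and passed the threshold (adjusted p = 1.15e-04).

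The same dependence appears in the shares of the summed level per length of the 5 genes. By union length, Nefl held 50.6, 43.2, 50.4 and 41.1% of the sum in replicates 1 to 4, and Nefm held 24.6, 26.2, 21.8 and 35.7%. By the transcript with the longest coding sequence, Nefl held 42.8, 36.2, 43.4 and 32.6% and Nefm 36.1, 38.1, 32.6 and 49.1%. On both scales Nefm held its largest share, and Nefl its smallest, in replicate 4. Ina held from 15.6 to 21.5% and Nefh from 7.01 to 8.48% by union length. Prph held at most 0.602% of the sum.

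**Figure D2:**
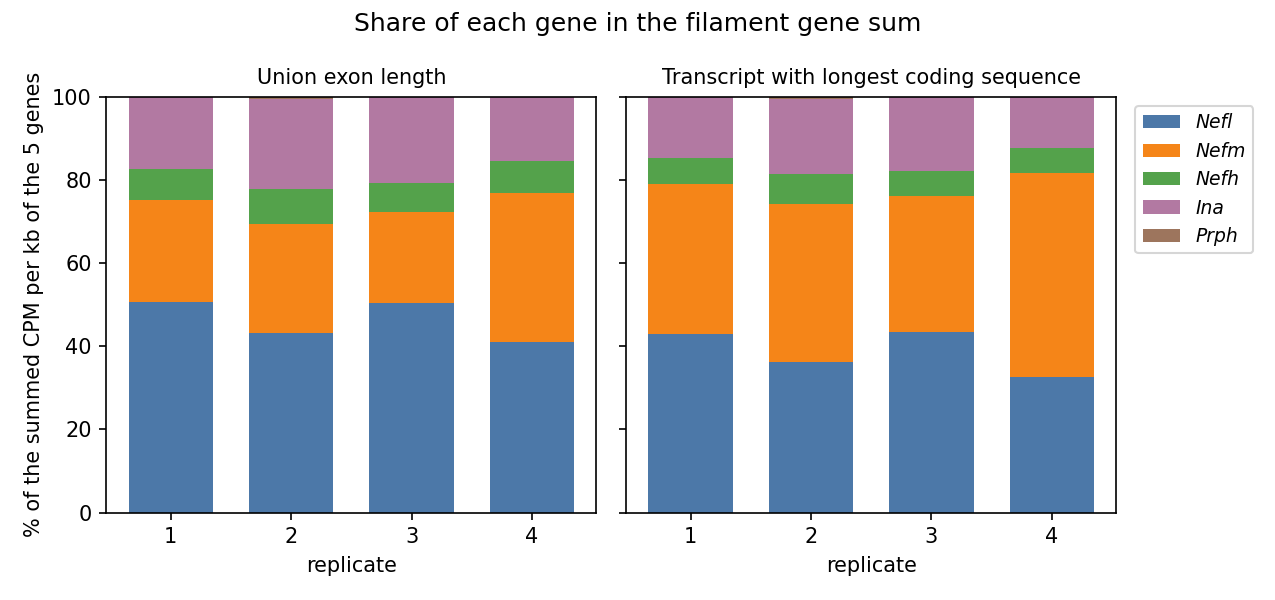
Share of each gene in the summed CPM per kb of the 5 genes, per replicate, with union exon length on the left and the transcript with the longest coding sequence on the right. Nefm holds 35.7% of the sum in replicate 4 on the left and 49.1% on the right, its largest share in both panels.

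Set beside Slc17a6, the gene whose promoter names the line, Nefl was not told apart from it per length. Its log2 ratio per length to Slc17a6 was -0.13, -0.47, -0.06 and 0.22 in replicates 1 to 4, with a mean of -0.11 ± 0.29 (limma, adjusted p = 0.558). Without replicate 2 the mean was 0.01, and with the longest transcript as length it was -0.49 (adjusted p = 0.0183). Only 0.154% of the genes tested lay above Slc17a6 and 99.6% below.

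Nefm stood at -1.17, -1.20, -1.27 and 0.02 relative to Slc17a6, so that replicates 1 to 3 lay together and replicate 4 apart. The mean of -0.90 ± 0.62 passed the threshold (limma, adjusted p = 0.0027) but not with the length of the transcript with the longest coding sequence (-0.49, adjusted p = 0.0564). For this ratio the exact two-sided sign-flip test gave p = 0.25. Nefh lay below Slc17a6 by -2.90, -2.82, -2.90 and -2.21, with a mean of -2.71 ± 0.33 (adjusted p = 2.6e-08). Ina lay below it by a mean of -1.42 ± 0.21 (adjusted p = 5.4e-06).

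Whether 1 library departed from the rest was asked with edgeR, each library against the other 3, with p-values adjusted over 15083 genes. The 4 comparisons share libraries, and with 1 library on one side the spread in each test comes from the other 3 alone. Replicate 4, whose library number 1476 is apart from the numbers 1300 to 1302 of the others, had the higher level of all 4 abundant filament genes. None of the members passed the threshold in any of the 4 comparisons, in which 3, 0, 0 and 7 genes were called for replicates 1 to 4, or 0.0199, 0, 0 and 0.0464% of those tested. For replicate 4 this was 0.0398% called higher and 0.00663% called lower. At an unadjusted p under 0.05 there were 497, 78, 1058 and 2222 genes, and the DESeq2 Wald test called 26, 7, 81 and 380.

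Nefm had 2502 CPM in replicate 4, against 897 to 1065 CPM in the other 3 libraries, the largest fold among the 4 abundant members. The log2 fold change was 1.53 ± 0.24 (SE), or 2.89-fold, and ranked 8 of 15083 genes by p (edgeR, adjusted p = 0.0532). The DESeq2 Wald test gave 1.54 (adjusted p = 2.2e-04). Leaving out any 1 of replicates 1 to 3 gave 1.51 to 1.54 with adjusted p from 0.0024 to 0.0437, so the fold hardly moved while the call changed.

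Nefh had 368 CPM in replicate 4, against 199 to 221 CPM in the other 3 libraries, a log2 fold change of 0.96 ± 0.28 (SE; edgeR, adjusted p = 0.198). Nefl had 1684 CPM in replicate 4, against 906 to 1280 CPM in the others, a log2 fold change of 0.73 ± 0.27 (adjusted p = 0.255). Ina had 613 CPM in replicate 4, against 419 to 479 CPM in the others, a log2 fold change of 0.62 ± 0.28 (adjusted p = 0.336). For each of these genes the replicate 4 value lay above all 3 others, though none passed the threshold.

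Lying highest in replicate 4 was common, as 38.8% of the 2139 genes that averaged 100 CPM or more did so, and 23.9% of all genes tested. For replicates 1, 2 and 3 the shares were 30.7, 11 and 19.5% of the abundant genes and 33.5, 17.2 and 25.4% of all genes tested. The median log2 fold change of all genes in that comparison was -0.16 with TMM scaling and -0.14 with DESeq2 size factors. Slc17a6 itself changed by 0.30 ± 0.24 (SE; edgeR, adjusted p = 0.565). The median log2 fold change in replicate 4 was -1.53 over the Purkinje cell markers, -2.76 over the inhibitory neuron markers and -2.37 over the motor neuron markers. It was -0.54 over the granule cell markers and -0.13 over the astrocyte markers. It was 0.57 over the glutamatergic nuclear neuron markers, 0.52 over the oligodendrocyte markers and 1.58 over the monoamine neuron markers. The motor neuron markers were not lowest in replicate 4. They summed to 26.8 CPM there, against 9.15, 118 and 8.43 CPM in replicates 1 to 3. Of these 8 lists, 0 genes were called in replicate 4. Their part in the filament gene values was not tested.

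**Figure D3:**
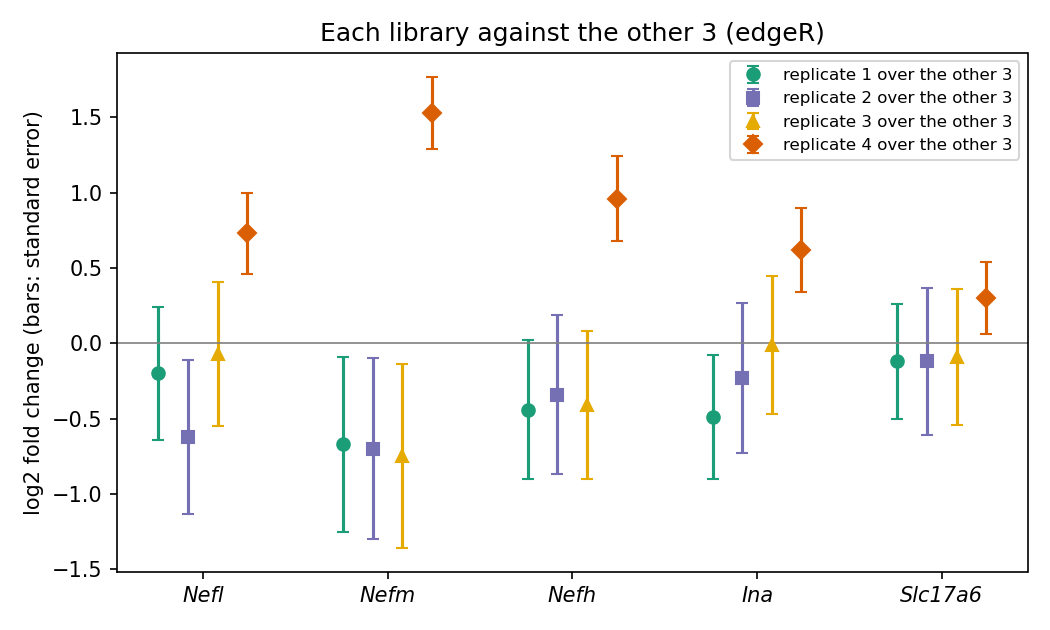
Log2 fold change of each library over the other 3 (edgeR, bars give the standard error) for the 4 abundant filament genes and Slc17a6. The 4 filament genes lie at 0.62 to 1.53 in replicate 4 and at -0.75 to -0.01 in the other 3 comparisons, which share libraries.

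The spread of each gene over the libraries was set against that of the same 2139 abundant genes, whose median SD was 0.32 on the log2 CPM scale. Nefm had an SD of 0.70, above 93.5% of those genes. Nefh at 0.41 and Nefl at 0.37 lay above 66.5 and 58.7% of them, and Ina at 0.25 above 31.8%. Without replicate 4, the SD of Nefm was 0.13, above 18.8% of those genes, and that of Nefh was 0.08, above 8.27%, so the spread of both rests on that library. Nefl then had an SD of 0.27 and Ina of 0.10, above 54.1 and 12.9%.

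Profiles across the 4 libraries were compared as the root mean square (RMS) difference of log2 CPM after centring each gene, with no test. Within the family, Nefh was close to Ina (0.19) and to Nefl (0.21), Nefl to Ina (0.20), and Nefm was closest to Nefh (0.25). Prph differed from the other 4 by 1.85 to 2.03. Among 8844 other genes averaging 10 CPM or more, those closest to Nefl were Pcm1, Rnf152 and Atg4c (0.011 to 0.026), and those closest to Nefm were Lig1, Mit1/Lb9 and Tspyl5 (0.043 to 0.050). Closest to Nefh were Arid1a, Ralgapa1 and Atg7 (0.030 to 0.043), and closest to Ina were Hspa12a, Leng8 and Smg6 (0.013 to 0.016). With only 4 libraries many genes have close profiles, and nothing is drawn from these names.

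Prph was far below the other members. In replicates 1 to 4 it lay under Ina by log2 ratios of 6.29, 5.07, 9.21 and 9.32 per length, with a mean ratio Ina/Prph of 7.47 ± 2.13 (limma, adjusted p = 8.9e-09). The ratios Nefl/Prph, Nefm/Prph and Nefh/Prph averaged 8.78 ± 2.23, 7.99 ± 2.34 and 6.18 ± 2.15 (limma, adjusted p from 6.8e-12 to 2.1e-06). These small p-values rest on a variance pooled over ratios that all share the Prph counts. The exact two-sided sign-flip test gave p = 0.125 for each. Of the genes tested, 45.8% lay above Prph and 0.33% below it. Because Prph had 0 counts in replicate 3 and 1 in replicate 4, the size of these ratios depends on the pseudocount of 0.5 CPM. Its level of 0 in replicate 3 allows up to 0.287 CPM.

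The few Prph counts were not spread evenly. Replicate 2 had 7.47 CPM, against 0 to 2.81 CPM in the other 3 libraries, and the log2 fold change of 3.08 ± 1.94 (SE) did not pass (edgeR, adjusted p = 1). Its nearest profiles were those of Doc2a and Prpf38a, though at RMS differences of 0.584 and 0.666 they were not close.

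The 7 listed markers of brainstem motor neurons summed to 9.15, 118, 8.43 and 26.8 CPM in replicates 1 to 4. In replicate 1, where Prph had 27 counts, this sum was lower than in replicate 4, where Prph had 1 count. Of the 7 markers, 2 were at 1 CPM or more in every library. Slc18a3, the vesicular acetylcholine transporter, had 16.5 CPM in replicate 2, against 0 to 1.0 CPM in the others. Chat, the enzyme that makes acetylcholine, had 10.3 CPM in replicate 2, against 0 to 4.0 CPM in the others. Isl1, a transcription factor of motor neurons, had no count in any library. The 7 monoamine neuron markers summed to 13.5, 65.9, 15.0 and 94.7 CPM in replicates 1 to 4 so their sum was highest in replicate 4, where Prph had 1 count. Of the single markers, 5 of the 7 for motor neurons and 4 of the 7 for monoamine neurons were highest in replicate 2. Of all genes tested, 17.2% were highest there. Among those 4 monoamine markers, Tph2, Slc6a4 and Fev had only 2, 5 and 16 counts in replicate 2. The other, Slc6a2, had 144 counts in both replicate 2 and replicate 4. The part of such neurons in the Prph counts was not tested.

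**Figure D4:**
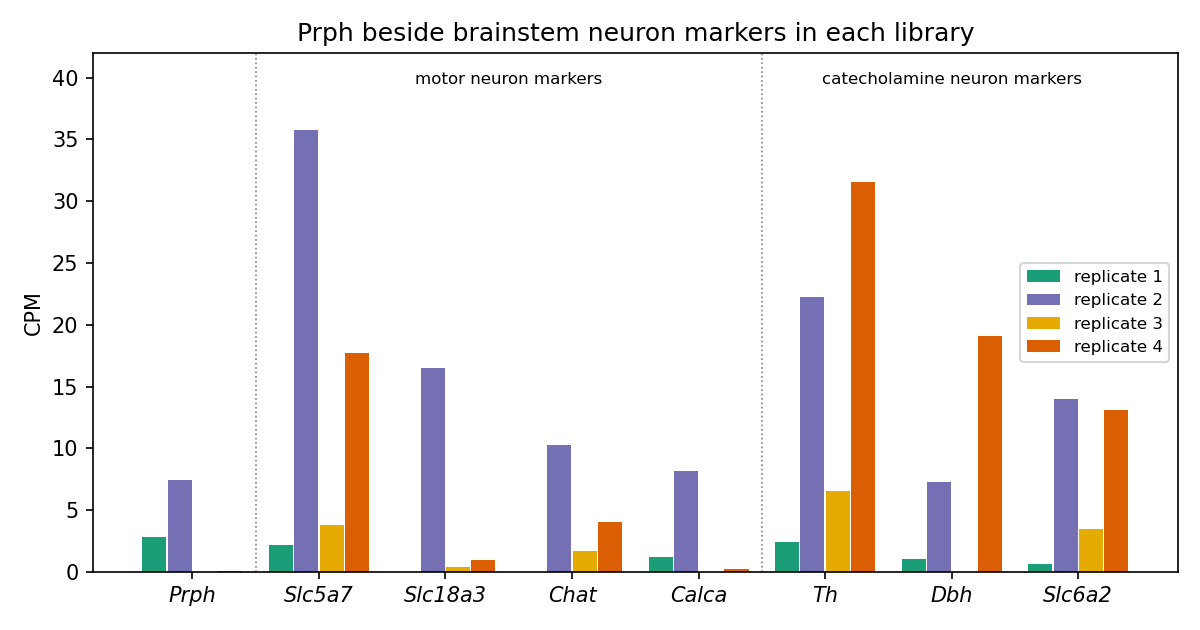
CPM of Prph beside 4 brainstem motor neuron markers and 3 catecholamine neuron markers in each library. Prph is highest in replicate 2 at 7.47 CPM, as are the motor neuron markers shown and Slc6a2, while Th and Dbh are highest in replicate 4.

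Other intermediate filament genes were scarce. Of 16 listed, 5 reached 1 CPM in all libraries and 2, the keratin genes Krt8 and Krt5, had no count in any. The highest per length were Gfap, the filament of astrocytes, at 3.89 ± 0.982, Vim, the filament of glia and vessels, at 3.56 ± 2.83, and Synm, which encodes synemin, at 3.30 ± 1.04 CPM per kb (SD, n = 4). All 10 that could be tested lay below Nefh (limma, adjusted p under 0.05), with a median log2 ratio of -5.80, against -3.80 for all 13021 genes tested and 92.9% of them below.

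Genes known to act on neurofilaments were mostly present, and their levels per length were set against Nefh, the lowest of the abundant members. Of 9 kinase and activator genes, 2 were above Nefh, 3 below and 4 did not pass. Of all genes tested, 2.1% were above it and 92.9% below. Mapk10 and Gsk3b, kinases of neurofilament tails, stood at 109 ± 13.1 and 101 ± 15.4 CPM per kb and exceeded Nefh by 0.84 and 0.72 on the log2 scale (limma, adjusted p = 0.0044 and 0.0140). Cdk5r2, an activator of Cdk5, stood at 69.5 ± 23.4 CPM per kb (log2 ratio 0.14, adjusted p = 0.559), and Mapk8 was lowest at 10.5 ± 1.80 CPM per kb (log2 ratio -2.54, adjusted p = 8.4e-07).

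Of 8 transport genes, 2 lay above Nefh and 3 below, against 2.1 and 92.9% of all genes tested. Kif5a and Kif5c, kinesin motors of axonal transport, stood at 103 ± 16.8 and 94.2 ± 16.3 CPM per kb and had mean log2 ratios to Nefh of 0.75 ± 0.30 and 0.62 ± 0.65 (SD, n = 4; limma, adjusted p = 0.0087 and 0.0449). Kif5a was above Nefh in 4 of 4 libraries and Kif5c in 3, with a ratio of -0.32 in replicate 4. Klc1, a kinesin light chain, stood at 86.3 ± 18.1 CPM per kb (log2 ratio 0.48, adjusted p = 0.120) and Dctn1, a dynactin subunit, was lowest at 16.3 ± 5.10 CPM per kb (log2 ratio -1.94, adjusted p = 4.9e-05).

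The 3 genes of neurofilament turnover lay below Nefh, as did 92.9% of all genes tested. Trim2, a ubiquitin ligase of the light chain, stood at 28.0 ± 2.64 CPM per kb (log2 ratio -1.12; limma, adjusted p = 0.0014). Stub1, a ubiquitin ligase that works with chaperones, was the lowest at 0.474 ± 0.438 CPM per kb (log2 ratio -6.72, adjusted p = 1.4e-07). The 4 linker genes that could be tested also lay below it, which is near the same 92.9% of all genes. The highest were Dst at 19.8 ± 3.07, Macf1 at 10.9 ± 2.62 and Plec at 3.65 ± 1.67 CPM per kb. Eppk1, the lowest linker, had 1.84 CPM in replicate 2 and no count in the other 3.

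Of 4 genes whose products have been reported to bind neurofilament mRNA, Sod1 lay above Nefh, at 157 ± 15.1 CPM per kb (log2 ratio 1.37; limma, adjusted p = 1.0e-04). Tardbp at 14.5 ± 3.08 and Arhgef28 at 2.04 ± 0.607 CPM per kb were among those below it. Of 10 genes typical of large, fast-conducting myelinated neurons, 3 lay above Nefh and 2 below, against 2.1 and 92.9% of all genes tested. Pvalb, a calcium buffer, stood at 124 ± 54.6, Vamp1, a vesicle fusion protein, at 104 ± 14.3 and Kcna1, a potassium channel subunit, at 93.8 ± 21.3 CPM per kb, with log2 ratios of 0.91 ± 1.14, 0.77 ± 0.37 and 0.61 ± 0.52 to Nefh (adjusted p = 0.0249, 0.0089 and 0.0393). Pvalb was above Nefh in 3 of 4 libraries, with a ratio of -0.73 in replicate 4. Syt2, a calcium sensor of vesicle release, was the lowest at 18.97 ± 9.14 CPM per kb (log2 ratio -1.84, adjusted p = 4.5e-04).

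Over all 7 lists, 55 genes, 48 could be tested, of which 8 lay above Nefh and 28 below. These are 8 and 28 of 48, against 2.1 and 92.9% of all genes tested. The count above Nefh was 5, 4, 2 and 10 without replicates 1 to 4 in turn, and the count below was 28, 28, 28 and 29. The count above was also 4 with limma's variance taken without a trend, 12 with the transcript of longest coding sequence as length and 14 with no length. In the comparisons of 1 library with the other 3, 0 of these genes were called. The median log2 fold change in replicate 4 was 0.37 for the kinases, 0.21 for the genes of large neurons, 0.07 for the genes of mRNA binding, -0.04 for the transport genes, -0.38 for the turnover genes, -0.83 for the other intermediate filament genes and -1.05 for the linkers, against -0.16 for all genes tested.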

How the data were processed

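The authors deposited whole-number counts per gene name for each of 4 libraries. Per the submitters' processing notes, STAR 2.0.0e, HTSeq and the build mm10 were used. For the annotation, strandedness and read length, the value is not given in the sources used here. The rows of the counting program were left out of totals: reads with no feature were 14.1 to 21.1%, ambiguous reads 2.04 to 2.94% and reads that were not unique 14.2 to 20.6% of all counted reads. Counts are not corrected by molecular identifiers, so limits cover counting error only. No 2 libraries were the same within sampling noise, as their chi-square statistics were 32.9 to 119 times the degrees of freedom.

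CPM used totals over all gene names. Exon lengths and sequences came from GENCODE M21 (GRCm38), which gave a length to 73.4% of names and to 95.4% of those with at least 10 counts in at least 2 libraries. Ratios are differences of log2(CPM + 0.5) less log2 length, fitted with limma 3.58.1 (trend, two-sided, Benjamini-Hochberg over all genes tested). Single libraries were compared with edgeR 4.0.16 in R 4.3.3 (TMM, filterByExpr, robust quasi-likelihood test with 2 residual degrees of freedom); DESeq2 1.42.0 was an alternative. The threshold was 0.05. Alternatives were other pseudocounts, lengths, scalings, filters and leaving out each replicate. Named are the members, the 3 highest and the lowest gene of each list, the 3 genes of closest profile to each member, Slc17a6, Rn45s and overlapping genes; motor and monoamine markers were singled out after their values were seen. Members, lists and tests were chosen with earlier results of these data known. Some items that this rule names are not reported here.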

Additional observations from a re-analysis of the deposited data

Results flagged for a closer look

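Replicate 4 lay far from the other 3 libraries, by the ratio of its gap to the group's range (Dixon's critical value 0.829 for 4 samples), in 4 of 25 measures of the members. These were the CPM level of Nefm (2502 CPM in replicate 4), the CPM level of Nefh (368 CPM), the log2 ratio per length Nefm/Slc17a6 (0.02) and the log2 ratio per length Nefh/Slc17a6 (-2.21). Chance flags about 1 in 20 such groups, and the measures share genes and libraries.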

How the results depend on the processing

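No paired analysis was possible because the libraries form 1 group. For the 15 ratios, 183 of the values under alternatives kept their direction and side of the threshold. Of the rest, 9 passed the threshold only under the alternative, 1 no longer passed it and 2 changed direction. With the transcript of longest coding sequence (chosen after seeing the data) Nefl/Nefm was 0, Nefm/Ina 1.31, Nefl/Slc17a6 -0.49 and Nefm/Slc17a6 -0.49. With the longest transcript Nefm/Ina was 1.16 and Nefl/Slc17a6 -0.49, with no length 1.35 and -0.79, and with a pseudocount of 2 Nefm/Ina was 0.51. Leaving out 1 replicate gave 0.66 to 0.99 for Nefl/Nefm, 0.29 to 0.66 for Nefm/Ina and -0.22 to 0.01 for Nefl/Slc17a6.

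Counts of genes called for replicates 1 to 4 (3, 0, 0 and 7) were 26, 7, 81 and 380 by DESeq2. With no filter they were 32, 86 and 416 for replicates 1, 3 and 4. Leaving out 1 other library gave 7 to 31 for replicate 1, 0 to 2 for replicate 2, 1 to 33 for replicate 3 and 74 to 125 for replicate 4; the cause was not tested. For replicate 4 every member kept its direction under the alternatives run, and Nefm passed the threshold in 6 of them. For the other replicates, the following log2 fold changes turned positive without replicate 4. Leaving out 1 library gave -0.41 to 0.11 for Nefl and -0.92 to 0.05 for Nefm in replicate 1. In replicate 2 it gave -0.96 to 0.01 for Nefm, -0.51 to 0.07 for Nefh and -0.40 to 0.01 for Ina, and in replicate 3 -0.27 to 0.26 for Nefl and -0.17 to 0.27 for Ina. Prph in replicate 1 was 0 by DESeq2 and with its size factors in edgeR, 0.01 without Rn45s and -0.58 to 5.37 leaving out 1 library. Depth limits the values of Prph, with 0 to 77 counts.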
